A study of Arabidopsis thaliana with 6 samples.

Results

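The 10 genes described here encode the Rubisco small subunit, Rubisco activase and 4 enzyme activities of the Calvin cycle in Arabidopsis thaliana. They were taken from the table by gene identifier: RBCS1A, RBCS1B, RBCS2B and RBCS3B for the small subunit, RCA for activase, GAPA and GAPB for plastid glyceraldehyde phosphate dehydrogenase, FBPase and SBPase for the plastid bisphosphatases, and PRK for phosphoribulokinase. All 10 were found among the 33602 genes of the deposited table. The study measured transcripts by RNA sequencing in whole seedlings of the wild-type Columbia (Col) accession, a laboratory strain of this small crucifer. In the Gln group (3 samples) the medium held 5 mM glutamine and no other nitrogen, and in the NH4NO3 group (3 samples) it held 5 mM ammonium nitrate and no other nitrogen. Both groups had the same Murashige and Skoog type salts without nitrogen, 0.5% sucrose and agar, and both were kept in 16 h of light and 8 h of dark at 22 °C for 12 days. The Gln medium lacked nitrate and ammonium, so that the presence of Gln and the absence of these ions cannot be told apart. The labels give no growth stage, fresh weight or plate for the samples, and do not say whether replicates came from separate cultures, so the spread behind each p-value is that between samples and may be technical.

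Rubisco fixes CO2 onto ribulose bisphosphate in the chloroplast stroma. It is built from large subunits, made from the chloroplast gene rbcL, and small subunits, made from a small family of nuclear RBCS genes, and Rubisco activase frees its active sites of bound sugar phosphates. The enzymes of the Calvin cycle then reduce the product with ATP and NADPH from the light reactions, through glyceraldehyde phosphate dehydrogenase, and rebuild the CO2 acceptor, through FBPase, SBPase and phosphoribulokinase. In leaves this machinery holds a large share of the plant's protein nitrogen.

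The 4 small subunit genes are shown by sequence because reads of RBCS1B and RBCS3B are hard to tell apart and because the 4 did not all move by the same amount. Sequences and positions are those of the RefSeq annotation of TAIR10.1, counted from 1; the table itself has no coordinates. RBCS1A lies alone on chromosome 1 (chr1:25048158-25049667, minus strand). The other 3 lie in tandem on the minus strand of chromosome 5, RBCS3B at chr5:15376988-15378642, RBCS2B at chr5:15380907-15382071 and RBCS1B at chr5:15383167-15385320, with gaps of 2264 and 1095 bases between neighbours. None of the 4 overlaps another annotated gene. Bases 20 to 79 of the coding sequence, taken from the transcript nearest in length to that of RBCS2B and counted from the A of the start codon, hold 16 of the 66 positions, among 546 aligned, at which the 4 coding sequences differ. Capitals mark those 16 positions.
RBCS1A: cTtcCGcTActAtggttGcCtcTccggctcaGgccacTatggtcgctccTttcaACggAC
RBCS1B: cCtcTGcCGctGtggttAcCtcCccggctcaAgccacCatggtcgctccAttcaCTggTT
RBCS2B: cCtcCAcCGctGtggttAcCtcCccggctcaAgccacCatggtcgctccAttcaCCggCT
RBCS3B: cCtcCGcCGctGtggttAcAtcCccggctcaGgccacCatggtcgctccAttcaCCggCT

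The coding sequences of the chromosome 5 genes were 96.7% to 97.3% identical to each other, and that of RBCS1A was 89.9% to 90.1% identical to each of them. RBCS1B and RBCS3B shared an identical run of 233 bases, which no shorter read within it can assign. The deposited multi-read ratio, by its name a share of reads with more than 1 place in the genome, was 0.263 for RBCS1B and 0.224 for RBCS3B. For RBCS1A it was 1.8e-05, for RBCS2B 0.00018 and for the other 6 members 0. Values of RBCS1B and RBCS3B apart from each other are therefore uncertain, and their sum is given below as well.

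Light-regulated plant genes often carry the G-box CACGTG and the I-box GATAAG in their promoters, and both were described in RBCS genes. Both strands of the 300 bases before each start codon, which can include transcribed sequence, were searched for CACGTG, which reads the same on both strands, and for GATAAG, which reads CTTATC on the other; the motifs can share at most 1 base at their ends, and a G-box and an I-box shared none in the members. A G-box was found in 6 of 10 members, RBCS1A, RBCS2B, RBCS3B, RCA, FBPase and SBPase, and in 6.28% of the 27443 genes searched in the same way. An I-box was found in 7 members and in 15.4% of genes, and both motifs in 4 members and in 1.06% of genes. Those 4 were RBCS1A, RBCS2B, RBCS3B and FBPase. The small subunit genes are similar in sequence, so their motif hits may not be independent of each other. PRK held neither motif in this window and RBCS1B held no G-box. The segments of 30 bases around the G-box of 3 small subunit genes, and around the paired I-boxes of RBCS1B, which share 1 base, are shown with the motifs in capitals; they lie on the minus strand at chr1:25049491-25049520, chr5:15382177-15382206, chr5:15378506-15378535 and chr5:15385308-15385337. The RBCS1A and RBCS3B segments lie inside the annotated span of their gene, and the RBCS1B segment reaches into it, so they are not wholly upstream of the annotated start.
RBCS1A: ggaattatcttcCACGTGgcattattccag
RBCS2B: ggagttttctgcCACGTGatCTTATCctag
RBCS3B: ggagttttctgcCACGTGgcCTTATCctag
RBCS1B: tcacaaaagaaaGATAAGATAAGggtgtca

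RBCS2B, which had the lowest Gln level relative to NH4NO3 of the 10 members, is shown with the 250 bases before its annotated start (chr5:15382072-15382321, minus strand), the G-box and the 3 I-boxes in capitals. RBCS3B held the same set before its start codon, 1 G-box and 3 I-boxes. Its log2 fold change was -0.46, against -0.78 for RBCS2B. RBCS1A held 1 G-box and 2 I-boxes (log2 fold change -0.19), and RBCS1B held 2 I-boxes and no G-box (-0.54). Whether the motifs bear on the size of these changes was not tested. A match of letters is a description of the sequence, and binding was not measured.
RBCS2B promoter: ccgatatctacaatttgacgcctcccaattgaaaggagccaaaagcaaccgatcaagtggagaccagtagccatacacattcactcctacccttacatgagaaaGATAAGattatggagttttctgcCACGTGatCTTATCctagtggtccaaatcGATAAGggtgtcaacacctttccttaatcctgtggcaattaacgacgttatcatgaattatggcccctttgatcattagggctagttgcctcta

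Transcript levels are in RPKM, a read number divided by gene length and by library size, so levels of different genes can be compared. The libraries held 30269358 to 35421767 reads in genes for Gln and 28654470 to 31980696 for NH4NO3. Each member had between 7955 and 334955 reads in every library, and all 10 passed the minimum of 1 RPKM that 19284 genes met. The 10 members together took 1.95% to 2.17% of the reads in genes in Gln and 2.51% to 2.78% in NH4NO3. The library of NH4NO3 replicate 2 stood apart from the others in one respect: among genes with 1 to 100 reads, 44.9% had an even read number (95% exact binomial interval 43.7% to 46.1%, which covers counting error only), against 57.8% to 60.9% in the other 5 libraries. It also had the highest level of 9 of the 10 members, so counts are given without it too. Chlorophyll-binding (LHC) genes, which mark green tissue, were abundant in every library, with a summed level of 48211 to 62813 RPKM in Gln and 66521 to 78875 RPKM in NH4NO3.

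Seedlings on Gln had lower transcript levels of the Rubisco and Calvin cycle genes than seedlings on NH4NO3. Of the 10 members, 9 fell and 0 rose (limma, adjusted p under 0.05 over all 19284 genes tested); RBCS1A did not pass. Over all genes tested, 41.2% were called, 19.8% as lower and 21.4% as higher in Gln. The members' median log2 fold change was -0.45, against -0.02 for all genes tested, and mean levels were 12.6% to 40.8% lower in Gln. In all 10 members every Gln library lay below every NH4NO3 library, as did 27.1% of all genes tested. In whole seedlings, fewer green cells and less RNA per green cell cannot be told apart. Without NH4NO3 replicate 2, 7 of 10 members fell (13.4% of all genes tested), with no minimum on low values 2 of 10 did, RBCS1B and FBPase (7.87% of all 33602 genes), and after quantile normalization 8 fell and 1, RBCS1A, rose (23.0% of all genes tested were then lower).

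**Figure D1:**
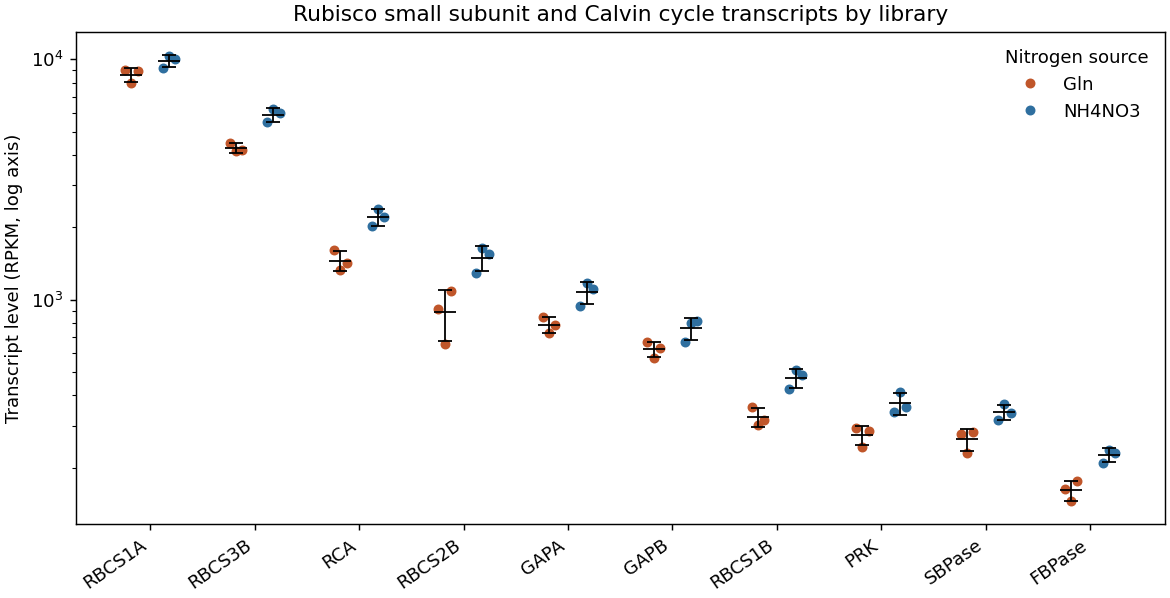
Transcript level in RPKM (log axis) of each of the 10 members in the 3 Gln and the 3 NH4NO3 libraries; points are libraries, horizontal bars means and vertical bars ± SD. Every Gln library lies below every NH4NO3 library for every member, by the least for GAPB, and RBCS1A is the most abundant member in both groups.

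The small subunit genes differed in how far they lay below NH4NO3. RBCS1A (AT1G67090), the most abundant, had 8988, 7931 and 8964 RPKM in Gln replicates 1 to 3, against 9213, 10361 and 10032 RPKM in NH4NO3 replicates 1 to 3. The groups did not overlap, but the gap between the nearest libraries was small beside the spread within each group. Its mean was 8628 ± 603 RPKM in Gln and 9869 ± 591 RPKM in NH4NO3 (SD, n = 3 each, here and below), a log2 fold change of -0.19 ± 0.13 (SE; 95% interval -0.49 to 0.10; limma adjusted p = 0.271). RBCS1A ranked 2nd among all genes in each Gln library and 3rd in each NH4NO3 library. Quantile normalization, which gives equal ranks equal values, therefore turned its direction, to 0.24 on the log2 scale (limma adjusted p = 0.00419).

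RBCS3B (AT5G38410), the next most abundant, had 4507, 4141 and 4208 RPKM in Gln, against 5461, 6204 and 5977 RPKM in NH4NO3. All Gln libraries lay well below all NH4NO3 libraries. RBCS3B fell by 0.46 ± 0.11 on the log2 scale (limma adjusted p = 0.0106); its log2 fold change was -0.15 (adjusted p = 0.123) after quantile normalization, and it did not pass without NH4NO3 replicate 2 (adjusted p = 0.0588). RBCS1B (AT5G38430), the least abundant of the 4, had 357, 301 and 318 RPKM in Gln, against 427, 508 and 486 RPKM in NH4NO3. It fell by 0.54 ± 0.09 on the log2 scale (limma adjusted p = 0.0014). RBCS1B and RBCS3B summed, which depends less on how reads were divided between them, averaged 4611 ± 223 RPKM in Gln and 6354 ± 423 RPKM in NH4NO3, 27.4% lower in Gln.

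RBCS2B (AT5G38420) had 916, 658 and 1084 RPKM in Gln, against 1296, 1649 and 1547 RPKM in NH4NO3. Its Gln libraries were the most scattered of any member, with a coefficient of variation of 24.2% in Gln and 12.1% in NH4NO3, where the other 9 members had 4.54% to 10.9% in either group. RBCS2B fell, to 886 ± 214 RPKM in Gln, against 1497 ± 182 RPKM in NH4NO3, or by 0.78 ± 0.17 on the log2 scale (limma adjusted p = 0.00522). Without Gln replicate 2, its lowest library, the log2 fold change was -0.58 (adjusted p = 0.0101).

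The make-up of the small subunit pool differed between the groups. The 4 genes summed to 14124 ± 951 RPKM in Gln and 17720 ± 1195 RPKM in NH4NO3, 20.3% lower in Gln, and the 3 chromosome 5 genes to 5496 ± 353 RPKM in Gln and 7852 ± 604 RPKM in NH4NO3. RBCS1A made up 60.9%, 60.9% and 61.5% of the pool in Gln, against 56.2%, 55.3% and 55.6% in NH4NO3. The groups lay far apart on this share relative to their spread. RBCS3B made up 30.4 ± 1.46% in Gln and 33.2 ± 0.10% in NH4NO3, RBCS2B 6.23 ± 1.19% in Gln and 8.43 ± 0.47% in NH4NO3, and RBCS1B 2.18% to 2.41% in Gln and 2.60% to 2.71% in NH4NO3. The ratio of RBCS1A to the chromosome 5 genes, which does not depend on how libraries are scaled, was 1.57 ± 0.02 in Gln and 1.26 ± 0.02 in NH4NO3. The ratio was higher in 3 of 3 Gln libraries (exact permutation test, two-sided, p = 0.1, the smallest that 3 against 3 samples allow; adjusted p = 0.15 over 6 ratios).

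**Figure D2:**
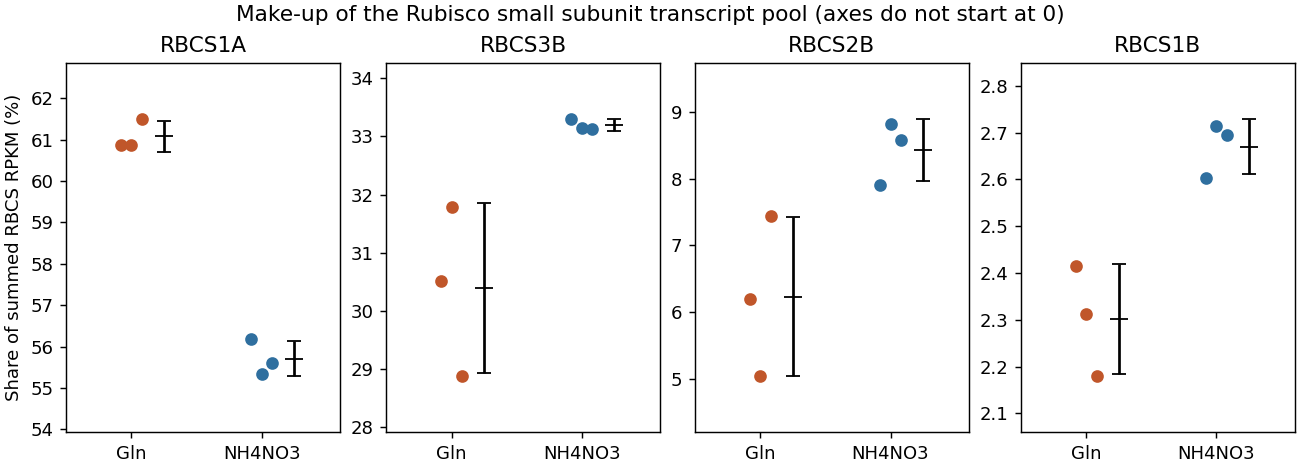
Share of the summed RPKM of the 4 small subunit genes taken by each gene, in percent, in the 3 Gln and the 3 NH4NO3 libraries; points are libraries, bars mean ± SD, and no axis starts at 0. RBCS1A makes up 61.1% in Gln and 55.7% in NH4NO3, and the 3 chromosome 5 genes each make up less in Gln.

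RCA (AT2G39730, chr2:16570746-16573692, minus strand), the activase gene, had 1607, 1330 and 1428 RPKM in Gln, against 2029, 2386 and 2210 RPKM in NH4NO3. No Gln library came near the lowest NH4NO3 library. RCA fell to 1455 ± 140 RPKM in Gln, against 2208 ± 179 RPKM in NH4NO3, or by 0.60 ± 0.11 on the log2 scale (limma adjusted p = 0.00174). The small subunit sum was 9.73 ± 0.51 times the RCA level in Gln and 8.03 ± 0.16 times in NH4NO3, with no overlap (exact permutation test, two-sided, p = 0.1; adjusted p = 0.15). The annotated span of RCA overlaps a neighbouring gene by 3 bases, those of PRK and GAPA by 33 and 13 bases and that of FBPase by 167 bases; the kit does not mark strand, so reads in those stretches cannot be assigned.

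GAPA and GAPB encode the A and B subunits of the plastid dehydrogenase that carries out the reducing step. GAPA (AT3G26650, chr3:9794862-9797045, plus strand) had 852, 729 and 783 RPKM in Gln, against 944, 1172 and 1105 RPKM in NH4NO3. GAPB (AT1G42970, chr1:16127353-16129895, plus strand) had 665.8, 575 and 631 RPKM in Gln, against 666.8, 800.0 and 817 RPKM in NH4NO3. Gln replicate 1 and NH4NO3 replicate 1 were nearly equal for GAPB, so its groups only just failed to overlap. GAPA fell by 0.44 ± 0.10 on the log2 scale (limma adjusted p = 0.00729). GAPB fell by 0.28 ± 0.10 (limma adjusted p = 0.0449), and this call was lost when any of 4 libraries was left out: Gln replicate 2 (adjusted p = 0.146), Gln replicate 3 (0.0729), NH4NO3 replicate 2 (0.146) or NH4NO3 replicate 3 (0.15). The ratio of GAPA to GAPB was 1.26 ± 0.02 in Gln and 1.41 ± 0.06 in NH4NO3 and was lower in 3 of 3 Gln libraries (exact permutation test, two-sided, p = 0.1; adjusted p = 0.15).

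The genes that rebuild the CO2 acceptor were the least abundant members. FBPase (AT3G54050, chr3:20016837-20018822, plus strand), which makes fructose phosphate in the plastid, had 164, 145 and 176 RPKM in Gln, against 209, 238 and 231 RPKM in NH4NO3. SBPase (AT3G55800, chr3:20709294-20711640, plus strand), its counterpart for sedoheptulose bisphosphate, had 276, 230.3 and 283 RPKM in Gln, against 317, 367 and 339 RPKM in NH4NO3. PRK (AT1G32060, chr1:11532199-11534639, plus strand), which adds the last phosphate, had 292, 244 and 285 RPKM in Gln, against 341, 415 and 357 RPKM in NH4NO3. In each of these 3 genes the highest Gln library lay below the lowest NH4NO3 library. FBPase fell by 0.48 ± 0.09 on the log2 scale (limma adjusted p = 0.00181), PRK by 0.44 ± 0.10 (adjusted p = 0.00595) and SBPase by 0.38 ± 0.09 (adjusted p = 0.0105). The ratio of SBPase to FBPase was 1.63 ± 0.05 in Gln and 1.51 ± 0.04 in NH4NO3, with no overlap (exact permutation test, two-sided, p = 0.1; adjusted p = 0.15). The ratio of PRK to GAPA plus GAPB overlapped, at 0.187 to 0.202 in Gln and 0.186 to 0.212 in NH4NO3 (p = 0.4 by the same exact test).

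The order of the members by level was the same in both groups: RBCS1A, RBCS3B, RCA, RBCS2B, GAPA, GAPB, RBCS1B, PRK, SBPase and FBPase. PRK and SBPase overlapped in both groups, and RBCS2B and GAPA overlapped in Gln; other neighbours in the order did not overlap. Within groups the members shared their lowest library. Gln replicate 2 had the lowest Gln level of all 10 members, and NH4NO3 replicate 1 the lowest NH4NO3 level of all 10. NH4NO3 replicate 2 had the highest NH4NO3 level of 9 members, and NH4NO3 replicate 3 that of GAPB. The highest Gln level was in replicate 1 for 7 members and in replicate 3 for the other 3, RBCS2B, FBPase and SBPase.

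**Figure D3:**
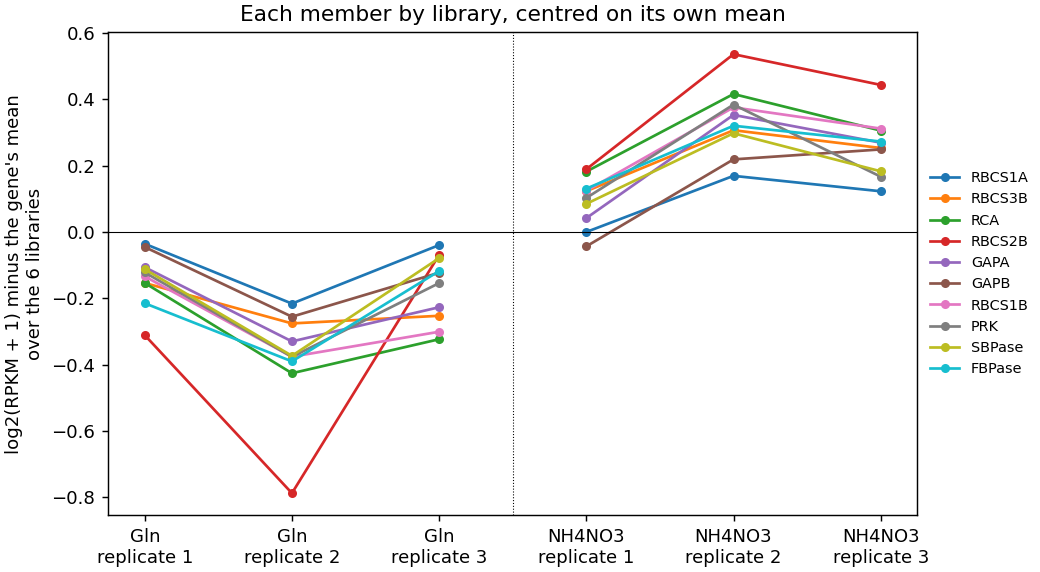
log2(RPKM + 1) of each member in each of the 6 libraries, minus that gene's mean over the 6; each line joins 1 gene's values and replicates have no order. Gln replicate 2 is the lowest Gln library and NH4NO3 replicate 1 the lowest NH4NO3 library for all 10 members, and RBCS2B in Gln replicate 2 lies furthest from its mean.

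The other plastid enzymes of the cycle, with the CP12 proteins that hold GAPDH and PRK in an inactive complex, fell in part. Of 15 genes tested, 8 fell, 0 rose and 7 did not pass (limma), with a median log2 fold change of -0.27 against -0.02 for all genes. Of all genes tested, 41.2% were called, 19.8% as lower. FBA2, a plastid aldolase, had 821 ± 72.0 RPKM in Gln and 1077 ± 81.0 RPKM in NH4NO3, and FBA1, another, 227 ± 24.97 RPKM in Gln and 310.5 ± 37.7 RPKM in NH4NO3. PGK1, a phosphoglycerate kinase, had 348 ± 37.9 RPKM in Gln and 451 ± 18.3 RPKM in NH4NO3, and GAPA2, a second GAPA gene, 354 ± 27.2 RPKM in Gln and 466 ± 41.3 RPKM in NH4NO3. CP12-1 fell to 952 ± 72.1 RPKM in Gln, against 1317 ± 134 RPKM in NH4NO3, by 0.47 ± 0.10 on the log2 scale (limma adjusted p = 0.00557). Transketolase TKL1 and ribose phosphate isomerase RPI3 fell by 0.27 ± 0.08 and 0.29 ± 0.07 on the log2 scale, and CFBP2, a second plastid FBPase of low level, by 0.35 ± 0.10. The TKL1 call was lost without Gln replicate 2 (adjusted p = 0.0979) and without NH4NO3 replicate 1 (0.0711), 2 (0.0901) or 3 (0.05), and the CFBP2 call without Gln replicate 3 (0.062) or NH4NO3 replicate 3 (0.0719).

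The 7 genes that did not pass lay between log2 fold changes of -0.20 and 0.20. They were PGK2 (77.3 ± 6.18 RPKM in Gln and 77.6 ± 2.73 RPKM in NH4NO3), the triose phosphate isomerase PDTPI, the aldolase FBA3 (128 ± 5.87 RPKM in Gln and 119 ± 4.79 RPKM in NH4NO3), the transketolase TKL2 (13.2 ± 1.00 RPKM in Gln and 11.4 ± 1.53 RPKM in NH4NO3), the epimerase RPE, CP12-2 and CP12-3. PDTPI and RPE lay below NH4NO3 in all 3 Gln libraries, with log2 fold changes of -0.14 ± 0.07 and -0.20 ± 0.08 (limma adjusted p = 0.142 and 0.0686); after quantile normalization both were called lower (adjusted p = 0.0137 and 0.0116). CP12-2 had 71.2 RPKM in NH4NO3 replicate 1, its lowest library, and was called lower without it (log2 fold change -0.27, adjusted p = 0.0232). Without the minimum on low values 2 of the 15 fell. The chloroplast gene rbcL, whose transcripts mostly lack the poly(A) tails that such kits select, was low in these libraries, at 1.09, 1.88 and 1.01 RPKM in Gln, against 5.76, 1.05 and 0.770 RPKM in NH4NO3, and gave no call (limma adjusted p = 0.551; log2 fold change -0.34, or 0.27 without NH4NO3 replicate 1).

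The cytosolic counterparts of these enzymes, which serve glycolysis and sucrose synthesis, held calls in both directions. Of 11 tested, 2 rose, 3 fell and 6 did not pass, with a median log2 fold change of -0.13; over all genes tested 21.4% rose and 19.8% fell, so these counts are near the background. GAPC1, a cytosolic glyceraldehyde phosphate dehydrogenase, rose to 444 ± 21.4 RPKM in Gln, against 359 ± 18.6 RPKM in NH4NO3 (log2 fold change 0.31 ± 0.07, limma adjusted p = 0.00878). The aldolase FBA8 rose to 228 ± 21.2 RPKM in Gln, against 186 ± 14.3 RPKM in NH4NO3, a call lost without Gln replicate 3 (limma adjusted p = 0.0681), NH4NO3 replicate 2 (0.0892) or NH4NO3 replicate 3 (0.0753). GAPC2 fell by 0.27 ± 0.07 on the log2 scale, and FBA7, an aldolase of low level, by 0.43 ± 0.10.

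**Figure D4:**
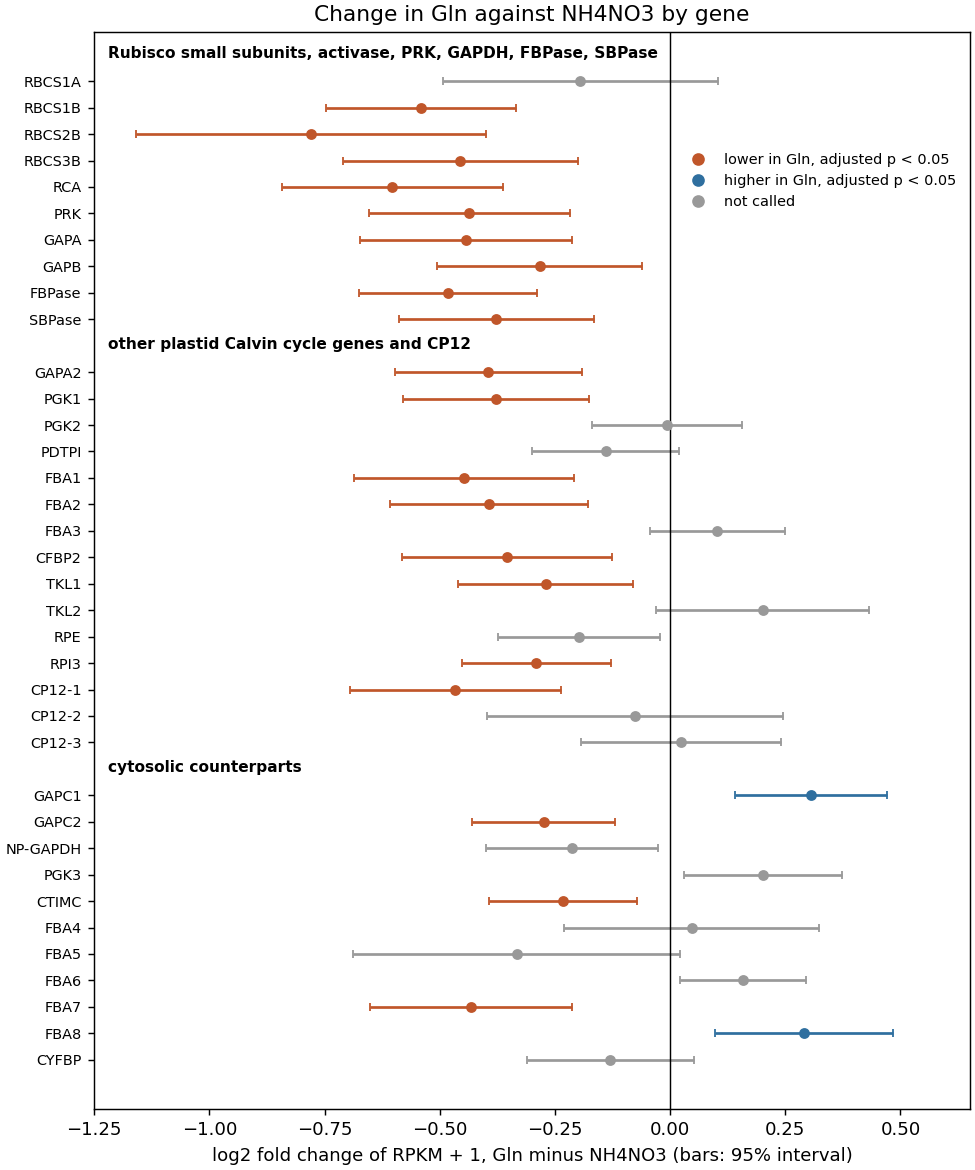
log2 fold change of RPKM + 1, Gln minus NH4NO3, for the 10 members, the 15 other plastid genes of the cycle and the 11 cytosolic counterparts; points are limma estimates, bars 95% intervals, and colour marks the call. Of the plastid genes in the upper blocks 17 fell and 0 rose, and the cytosolic block holds both directions.

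Genes for proteins that fold, assemble or activate Rubisco and its partners were lower where they passed the test. Of 17 chaperones and assembly factors 8 fell, 0 rose and 9 did not pass, with a median log2 fold change of -0.23. The total called is near the 41.2% called over all genes tested, of which 19.8% were lower. Leaving out each library in turn, 6 to 9 of the 17 fell. CBBY, a phosphatase that removes an inhibitory sugar bisphosphate of Rubisco, fell to 61.1 ± 1.97 RPKM in Gln, against 89.5 ± 6.79 RPKM in NH4NO3, and CPN60B4, a chaperonin subunit of low level, to 2.70 ± 0.35 RPKM in Gln, against 4.51 ± 0.25 RPKM in NH4NO3. Of 8 thioredoxin system genes, whose products switch on FBPase, SBPase, PRK and GAPDH in the light, 3 fell and 0 rose, a total near the 41.2% called over all genes tested. NTRC, a reductase with its own thioredoxin domain, fell to 34.4 ± 2.38 RPKM in Gln, against 49.1 ± 1.70 RPKM in NH4NO3. The f-type thioredoxins TRXF1 and TRXF2 fell by 0.26 ± 0.08 and 0.41 ± 0.07 on the log2 scale, the TRXF1 call being lost without Gln replicate 2 or 3 (adjusted p = 0.0924 and 0.0535) and without NH4NO3 replicate 2 or 3 (0.101 and 0.0896). TRXM1, TRXM2, TRXM3, TRXM4 and FTRB, a subunit of the ferredoxin-thioredoxin reductase, lay between -0.16 and 0.03 and did not pass; after quantile normalization 6 of the 8 genes were called lower.

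Photosynthetic genes outside the cycle were lower in Gln as well. Of 18 LHC genes 15 fell and 0 rose, with a median log2 fold change of -0.56; LHCB2.1, LHCB1.1, LHCB4.2 and LHCB2.2 had the largest log2 fold changes, -0.94 ± 0.11, -0.88 ± 0.15, -0.84 ± 0.12 and -0.79 ± 0.11, and the LHCB1 and LHCB2 genes have close copies that share sequence. LHCB1.3, the most abundant of the 18, had 18277 ± 2206 RPKM in Gln and 20377 ± 1647 RPKM in NH4NO3. Its libraries overlapped between groups, and it did not pass (log2 fold change -0.16 ± 0.17, limma adjusted p = 0.478). Quantile normalization gave an LHC median of -0.21 and 1 gene called higher. With no minimum on low values 3 LHC genes were lower, LHCB1.1 not among them (adjusted p = 0.119). The ratio of the small subunit sum to the LHC sum was 0.264, 0.270 and 0.232 in Gln, against 0.246, 0.237 and 0.235 in NH4NO3. The groups overlapped (log2 difference 0.09; exact permutation test, two-sided, p = 0.4). Of 18 photorespiration genes, which recycle the product of Rubisco's reaction with oxygen, 13 fell and 0 rose, with a median of -0.39. The list includes PGLP1A and PGLP1B, each with a multi-read ratio of 1 and with 0 reads in some libraries. Their log2 fold changes (-0.49 ± 1.24 and 0.82 ± 1.03) are therefore uncertain, and neither gene passed. GGT1, a glutamate-glyoxylate aminotransferase, fell to 609 ± 59.2 RPKM in Gln, against 954 ± 97.7 RPKM in NH4NO3. The glycolate transporter PLGG1 fell by 0.56 ± 0.07 on the log2 scale, the hydroxypyruvate reductase HPR1 by 0.51 ± 0.11 and the catalase CAT2 by 0.50 ± 0.11. Without the minimum level, HPR1 (adjusted p = 0.0596) and CAT2 (0.0555) did not pass and 7 photorespiration genes did, all lower.

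Starch and sucrose synthesis, which use the products of the cycle, had 12 of 19 genes lower and 2 higher, with a median log2 fold change of -0.30; without NH4NO3 replicate 2, 7 were lower and 1 higher. GBSS1, the amylose-making starch synthase, fell to 5.47 ± 0.52 RPKM in Gln, against 10.7 ± 0.80 RPKM in NH4NO3. APL4, an ADP-glucose pyrophosphorylase subunit, and the starch synthase SS3 fell by 0.66 ± 0.10 and 0.52 ± 0.09 on the log2 scale. GPT2, a glucose phosphate translocator of the plastid envelope, rose to 11.4, 8.60 and 7.64 RPKM in Gln, against 2.09, 1.99 and 2.14 RPKM in NH4NO3, a difference of 1.71 ± 0.13 on the log2 scale (limma adjusted p = 1.09e-05). It had the highest log2 fold change of all listed genes tested.

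Regulators of photosynthetic genes also differed. Of 20 tested, 11 fell and 2 rose (1 without Gln replicate 2 or NH4NO3 replicate 2), with a median log2 fold change of -0.40. GLK2, a factor that promotes chloroplast development, fell to 11.8 ± 2.31 RPKM in Gln, against 25.8 ± 4.14 RPKM in NH4NO3. The GATA factor GNC fell to 1.92 to 3.15 RPKM in Gln, against 4.85 to 6.89 RPKM in NH4NO3. Their relatives in the list, GLK1 and CGA1 (the latter of low level), did not pass. The log2 fold changes of GLK1 and CGA1 were -0.10 and -0.12 (limma adjusted p = 0.501 and 0.603). The phytochrome-interacting factors PIF1 and PIF4 fell by 1.14 ± 0.10 and 1.04 ± 0.09 on the log2 scale. The 2 that rose, named after their values were seen, were the bZIP factors GBF3 and HY5. GBF3 was at 22.1 ± 0.55 RPKM in Gln and 11.4 ± 0.48 RPKM in NH4NO3. HY5 was at 11.5 ± 1.12 RPKM in Gln and 8.98 ± 0.30 RPKM in NH4NO3. Other bZIP factors of the list, GBF1, GBF2 and HYH, did not pass. Their log2 fold changes were -0.12, 0.06 and 0.22 (limma adjusted p = 0.181, 0.483 and 0.381).

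Markers of plant parts moved with the nitrogen source too. Of 13 shoot markers tested, of 15, 12 fell and 0 rose, with a median of -0.54 on the log2 scale and a summed level of 145 to 157 RPKM in Gln and 218 to 241 RPKM in NH4NO3. SPCH, a stomatal lineage factor, fell by 1.09 ± 0.13 on the log2 scale, the guard cell genes KAT1 and MYB60 by 0.86 ± 0.13 and 0.67 ± 0.08, and the leaf factor AS1 by 0.62 ± 0.10. Of 17 root markers tested, of 19, 10 rose and 1 fell, with a median of 0.40 and a summed level of 178 to 236 RPKM in Gln and 126 to 138 RPKM in NH4NO3. The root hair genes PRP3, EXPA7 and EXPA18 rose by 1.43 ± 0.09, 1.36 ± 0.12 and 1.21 ± 0.15 on the log2 scale, and GL2, which also acts in leaf hairs, fell by 0.78 ± 0.13. No marker of either list was at 0 reads in every library, and the part of these shifts in the members' levels was not tested.

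**Figure D5:**
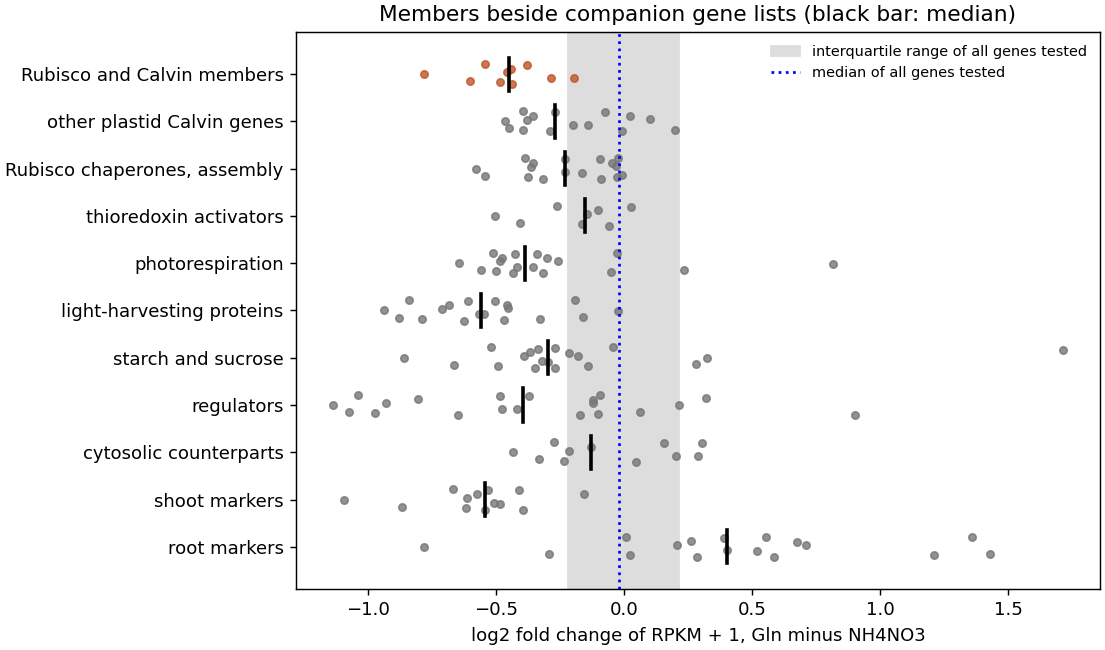
log2 fold change of RPKM + 1, Gln minus NH4NO3, of each tested gene of the 10 members and 10 companion lists; points are genes, black bars list medians, the grey band is the interquartile range of all genes tested and the dotted line their median of -0.02. The members' median is -0.45, near those of the light-harvesting (-0.56) and photorespiration (-0.39) genes, and the root markers lie on the other side at 0.40.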

How the data were processed

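Libraries were prepared from total RNA with the TruSeq RNA kit of Illumina, per the labels' protocols. The table deposited by the authors holds RPKM values with TMM-scaled library sizes, per the file headers and name, and a multi-read fraction per gene that the headers do not define. Per the submitters' processing notes, the TAIR10 genome and SAMtools were used; for the aligner and the counter, nothing is given in the sources used here. Multiplied by gene length, each value was a multiple of 1 step per library, with 0.5 reads added, and the implied reads were whole within 0.05 for 98.1% to 98.8% of values under 20 reads.

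Genes averaging 1 RPKM or more were fitted on log2(RPKM + 1) with limma 3.58.1 (R 4.3.3), with a mean-variance trend, no covariate and Benjamini-Hochberg adjustment over 19284 genes. Fold changes are Gln minus NH4NO3 on that scale, which understates changes of low genes. The count of members called is given beside the share of all genes called, and lists were described by counts and medians with no test of a list. The 6 ratios within libraries were compared by exact permutation tests. The fit was tested on simulated data first. Of 172 listed genes, 171 matched RefSeq (TAIR10.1), from which sequences were read with Python 3.11.15. Named were all members and other plastid genes of the cycle, rbcL, all thioredoxin genes and, of each longer list, up to 4 called genes with the largest change; some of these are not reported here. The members and lists were chosen with earlier results of these data known. Alternatives were other pseudocounts and minimums, quantile normalization, voom weights on implied reads, a replicate block and leaving out each library.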

Additional observations from a re-analysis of the deposited data

How the results depend on the processing

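All 10 members kept a negative log2 fold change under every alternative run except RBCS1A, at 0.24 after quantile normalization, which set the members called higher to 1 and those lower to 8. With no minimum on low values, which adds genes near 0 to the fit, the counts that moved by more than 1.5 times were, among genes called lower, 2 members, 2 other plastid genes of the cycle, 3 LHC and 7 photorespiration genes, and, among genes called higher, 1 starch and sucrose gene and 6 root markers. Voom weights on the implied reads called 4110 genes lower and 4218 higher over the whole table, and 2 root markers lower. A minimum of 5 RPKM gave 1 starch and sucrose gene higher, 0 root markers lower, and medians of -0.27 for regulators and 0.54 for root markers. A pseudocount of 5 gave a shoot median of -0.43. Quantile normalization gave 1 cytosolic gene higher, 6 thioredoxin genes lower, 1 LHC gene higher and an LHC median of -0.21; the cause of the last 4 shifts was not tested.

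Leaving out each library in turn, 7 to 9 members fell, with medians of -0.52 to -0.40, and 2586 to 3349 genes of the whole table were called lower and 3314 to 3835 higher. Cytosolic genes called higher ranged over 1 to 3, starch and sucrose genes higher over 1 to 2 and lower over 7 to 13, photorespiration genes higher over 0 to 1, regulators higher over 1 to 3, root markers lower over 1 to 2 and the root median over 0.28 to 0.55. Of genes not called, PGK2 ranged from -0.0669 to 0.0452 (above 0 without Gln replicates 2 or 3, where it was 0.0009, or NH4NO3 replicate 2, where it was 0.0211), and CP12-2 from -0.2732 to 0.0312 (0.0142 without NH4NO3 replicate 3). CP12-3 ranged from -0.0606 to 0.0884 and was -0.0210 after quantile normalization, TRXM3 ranged from -0.0003 to 0.0709 and was -0.0371 after quantile normalization, and rbcL (RBCL) ranged from -0.6952 to 0.2711, above 0 without NH4NO3 replicate 1.

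Same-numbered replicates did not deviate together (correlations of -0.073, -0.104 and -0.009 across genes). These values cannot show whether same-numbered samples were grown or processed together, which the labels do not say. With the replicate block, 8 members fell (median log2 fold change -0.45), GAPB (adjusted p = 0.0758) and TRXF1 (0.0536) did not pass, and 3383 genes were called lower and 3891 higher. With 3 libraries a group the precision is limited by their spread, not by depth, since every member had at least 7955 reads.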
